A study of Mus musculus with 10 samples.

Results

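The 35 genes described here were measured in hearts 1 week after transverse aortic constriction (TAC). They encode nuclear subunits of respiratory complexes II, III and IV and of ATP synthase, with cytochrome c and coupling factor s (Atp5s). In TAC the aorta is tied partly shut between its first branches, so that the left ventricle has to pump against a higher pressure. The genes were chosen by symbol, by a rule that uses no measured value but was drawn up with earlier results of these data known: 4 of complex II, 9 of complex III with cytochrome c, 6 of complex IV and 16 of ATP synthase, out of 20692 genes in the count table. The chosen symbols leave out the cytochrome oxidase subunits that occur as pairs of tissue isoforms. All 35 had enough counts to be tested, as had 12001 genes in all.

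RNA with poly(A) tails came from the apex of the ventricles of 5 TAC and 5 sham mice, wild-type animals of the inbred strain FVB/NJ, 9 weeks old and labelled female. The labels name no transgene or drug in either group. The replicates are taken as separate animals because the study counts mice, and no animal identifiers are given. Each library held between 7410967 and 10126574 counts. The library labelled TAC replicate 1 stood apart. It had 14 counts of Xist, the RNA that coats an inactive X chromosome, against 1042 to 1561 in the other 9 libraries, with 155 counts of the Y-linked Ddx3y where the others had 0, which goes against its female label. Results that rest on it are given with and without it.

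The respiratory chain moves electrons from NADH and succinate to oxygen and pumps protons across the inner mitochondrial membrane, and ATP synthase uses the returning protons to make ATP. Complex II is also an enzyme of the citric acid cycle, complex III hands electrons to the small carrier cytochrome c, and complex IV, cytochrome c oxidase, passes them to oxygen. Complexes III, IV and ATP synthase combine nuclear subunits with a few encoded in the mitochondrial genome, whereas complex II is wholly nuclear. The heart is among the tissues richest in mitochondria, and its contraction depends on this supply of ATP.

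Promoters of such genes are known to bind the nuclear respiratory factors NRF1 and GABP (an ETS-family factor) and, in muscle, estrogen-related receptors (ERR). Promoter sequence was at hand for 28 of the 35 members, from RefSeq on GRCm38.p6, as windows of 250 bases before to 50 bases after each start. The bases just before the start are printed here for 7 members, picked to show NRF1-type, ETS-type, ERR-type, cyclic AMP response and CCAAT words. Each runs 5′ to 3′ on the minus strand of the reference, and capitals mark matches, on either strand, to the motifs given after the sequences. The stretch of Sdha lies at chr13:74350241-74350370, that of Sdhd at chr9:50603850-50603979, that of Cycs at chr6:50566570-50566749 and that of Atp5k at chr5:108434400-108434529. Those of the 3 genes whose mature protein is the same, subunit c of ATP synthase, are Atp5g1 at chr11:96075632-96075761, Atp5g2 at chr15:102671048-102671177 and Atp5g3 at chr2:73911327-73911456.
Sdha: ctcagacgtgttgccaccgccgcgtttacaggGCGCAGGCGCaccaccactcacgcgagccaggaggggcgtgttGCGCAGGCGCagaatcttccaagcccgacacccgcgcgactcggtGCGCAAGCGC
Sdhd: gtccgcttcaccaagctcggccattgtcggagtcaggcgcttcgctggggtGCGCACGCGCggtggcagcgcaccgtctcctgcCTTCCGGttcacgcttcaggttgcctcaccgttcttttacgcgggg
Cycs: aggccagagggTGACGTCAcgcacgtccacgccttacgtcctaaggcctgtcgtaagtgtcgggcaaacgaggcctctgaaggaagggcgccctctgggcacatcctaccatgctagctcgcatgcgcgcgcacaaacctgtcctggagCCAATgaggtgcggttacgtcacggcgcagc
Atp5k: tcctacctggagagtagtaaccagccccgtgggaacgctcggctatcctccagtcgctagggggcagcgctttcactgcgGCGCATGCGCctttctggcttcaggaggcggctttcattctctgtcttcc
Atp5g1: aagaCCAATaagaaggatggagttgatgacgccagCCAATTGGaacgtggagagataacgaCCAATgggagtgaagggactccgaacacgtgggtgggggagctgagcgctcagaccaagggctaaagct
Atp5g2: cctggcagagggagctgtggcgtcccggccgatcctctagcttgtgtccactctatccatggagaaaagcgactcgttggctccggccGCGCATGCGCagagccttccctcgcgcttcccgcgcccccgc
Atp5g3: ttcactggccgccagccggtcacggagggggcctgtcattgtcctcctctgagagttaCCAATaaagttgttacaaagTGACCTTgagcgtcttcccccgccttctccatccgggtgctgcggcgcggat
Sdha carried the NRF1-type word, in which the sixth base is free, at 3 places, the last of them ending at base -1 before the start. Sdhd carried 1 such word and the ETS-type word CCGGAAG on the opposite strand, and Atp5k and Atp5g2 each held an NRF1-type word, read alike on both strands. Cycs, the gene of cytochrome c, held the cyclic AMP response element word TGACGTCA and 1 CCAAT word. The subunit c genes had no motif of this stretch in common to all of them: Atp5g1 held 4 CCAAT words, of which 2 overlap on opposite strands, Atp5g2 the NRF1-type word, and Atp5g3 1 CCAAT word and the ERR-type word AAGGTCA on the opposite strand.

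Over the whole windows, the NRF1-type word was found in 9 of 28 members, which were Sdha, Sdhd, Uqcrc1, Atp5c1, Atp5g2, Atp5g3, Atp5h, Atp5k and Atp5o. That is 32.1%, against 5.19% of all 27025 genes with a window and 11.6% of the 9415 of them tested here. The ERR-type word was found in 5 members, or 17.9%, against 3.90% of tested genes. The ETS-type word was found in 9, or 32.1%, against 19.9%, and the CCAAT word in 16, or 57.1%, against 42.5%. The YY1-type word AAGATGGCG was found in 2, Atp5j and Atp5j2, or 7.14%, against 3.63%. The cyclic AMP response element word was found in 2, Cycs and Uqcrfs1, or 7.14%, against 3.57%. The GC box, GGGCGG, was rarer in members than in tested genes, at 10 of 28 or 35.7% against 69.9%. Of all genes with a window, 38.2% held it, close to the members' share. The TATA word, TATAAA, was found only in Atp5l, at 3.57% against 8.66% of tested genes. No window of the few complex IV members at hand held the NRF1-type or the ERR-type word. Complex III had 1 member with the NRF1-type and 0 with the ERR-type word. The lack of the ERR-type word is thus not particular to complex IV. Only complex IV lacked the NRF1-type word, a difference that was not tested on so few windows. A match is a description of letters and not a binding site, and binding was not measured.

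Transcripts of these genes were lower in TAC hearts throughout the list when levels were scaled to the bulk of genes. This was not so when they were scaled to cardiomyocyte markers. That scaling, chosen after seeing the data, moved all genes alike and put the members' median log2 fold change at 0.01 and that of all tested genes at 0.39. At an adjusted p under 0.05 (quasi-likelihood test of edgeR, Benjamini-Hochberg adjustment over all tested genes), 34 of the 35 fell and none rose, where 17.0% of all tested genes fell and 18.8% rose. No member had a positive fold change at any p, and DESeq2 and limma-voom also called 34 lower and none higher. The median log2 fold change, TAC over sham, was -0.38, against 0.00 over all tested genes, and single members lay between -0.46 and -0.26. In fold terms the median was 0.769 of sham, within 0.729 to 0.838. The standard deviation of the 35 log2 fold changes was 0.06, and the median standard error (SE) of one was 0.07. That SE also holds shifts of whole libraries that the members share, so it is not the error of a difference between members. In 32 members every TAC library lay below every sham library, as was so for 11.6% of all tested genes, and the exceptions were Uqcrb, Cox5a and Atp5s.

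**Figure D1:**
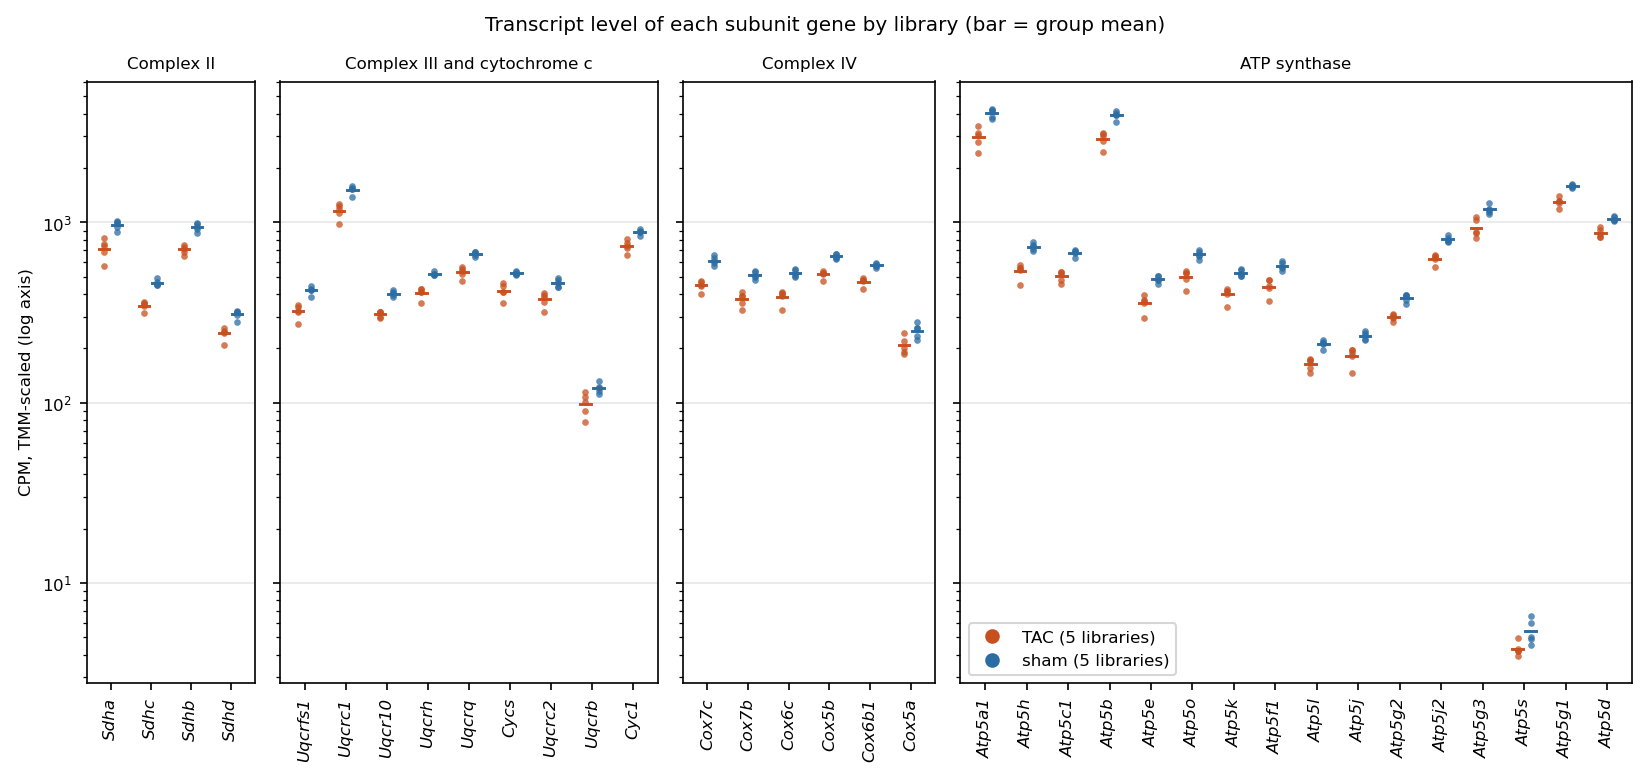
Level of each of the 35 genes in every library, in TMM-scaled CPM (log axis), with TAC left of sham and bars at group means. The 5 TAC libraries lie below the 5 sham libraries in all genes but Uqcrb, Cox5a and Atp5s, and Atp5s lies far below all others, at 3.93 to 6.52 CPM.

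Levels below are CPM, counts set to one common library size, after TMM scaling, whose factors are chosen so that most genes do not move. Adjusted p-values of genes come from that same edgeR test, folds are log2 fold changes of TAC over sham ± SE, and n is 5 libraries in each group.

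Complex II consists of 4 proteins, and all 4 genes fell, with a median log2 fold change of -0.42. Sdha encodes the flavoprotein that oxidizes succinate. It had 575, 743, 683, 824 and 758 CPM in the TAC libraries 1 to 5, against 940.5, 889, 1000.4, 1023 and 994 CPM in the sham libraries 1 to 5. TAC replicate 1 was the lowest, and the groups did not overlap (log2 fold change -0.44 ± 0.09, adjusted p = 0.00180 by edgeR). Sdhb, the iron-sulfur subunit that takes the electrons from the flavoprotein, had 652, 754, 689, 733 and 716 CPM in TAC, against 989, 869, 943, 977 and 925 CPM in sham. Its TAC libraries lay close together, below all sham libraries (log2 fold change -0.41 ± 0.06, adjusted p = 2.29e-04 by edgeR).

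Sdhc and Sdhd encode the small membrane subunits that anchor the enzyme and pass electrons to ubiquinone. Sdhc gave 314, 352, 342, 359.8 and 361 CPM in TAC, against 448, 469, 449, 493 and 458 CPM in sham. No library of either group came near the other group's range (log2 fold change -0.42 ± 0.05, adjusted p = 1.32e-04 by edgeR). Sdhd gave 209.7, 261, 244, 251 and 247 CPM in TAC, against 281, 305, 319.5, 322 and 320.3 CPM in sham. The nearest libraries were TAC replicate 2 and sham replicate 1, which did not cross (log2 fold change -0.35 ± 0.06, adjusted p = 0.00116 by edgeR).

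All 9 genes of complex III and cytochrome c fell, with a median log2 fold change of -0.34. Uqcrc1, a core protein on the matrix side of complex III, read 985, 1239, 1129.5, 1274 and 1183 CPM in TAC, against 1527, 1393, 1525, 1599.7 and 1554 CPM in sham. TAC replicate 1 was lowest and sham replicate 2 lowest of its group, with a gap between the groups (log2 fold change -0.39 ± 0.07, adjusted p = 0.00132 by edgeR). Uqcrfs1, the Rieske iron-sulfur protein, read 274, 339.6, 322, 350.1 and 320.0 CPM in TAC, against 420.0, 384, 429.7, 423 and 443 CPM in sham. It had the same lowest library in each group and the same change (log2 fold change -0.39 ± 0.07, adjusted p = 8.81e-04 by edgeR).

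Cyc1, cytochrome c1, which carries electrons from the Rieske protein to cytochrome c, had the smallest fall of all members. It read 664, 806, 739, 767 and 724 CPM in TAC, against 882, 837, 893, 916 and 889.8 CPM in sham. TAC replicate 2 came near sham replicate 2 without crossing it (log2 fold change -0.26 ± 0.06, adjusted p = 0.00479 by edgeR). Cycs, the soluble carrier cytochrome c, which outside mitochondria is a trigger of apoptosis, read 357, 461, 409.8, 445 and 413 CPM in TAC, against 519.6, 514, 531, 518 and 541 CPM in sham. The sham libraries lay within a narrow band above all TAC libraries (log2 fold change -0.33 ± 0.07, adjusted p = 0.00190 by edgeR).

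The remaining genes of complex III are Uqcrc2, the other core protein, and the small subunits Uqcrb, Uqcrq, Uqcrh and Uqcr10. Their log2 fold changes lay between -0.38 for Uqcr10 and -0.30 for Uqcrc2 and Uqcrb. Uqcrb, which binds ubiquinone, was the one whose groups crossed, at 78.2, 114, 108, 101 and 89.9 CPM in TAC, against 132, 116, 112, 121 and 122 CPM in sham. TAC replicate 2 lay above sham replicate 3 (log2 fold change -0.30 ± 0.09, adjusted p = 0.0217 by edgeR). Its call ended without TAC replicate 5 (adjusted p = 0.0512 by edgeR) and without sham replicate 1, where the adjusted p came to 0.05. It ended too with plain library totals as the scale, at an adjusted p of 0.0794 by edgeR. With a correction for GC content and transcript length the log2 fold change of Uqcrb was -0.11 (adjusted p = 0.231 by edgeR), and its adjusted p ranged from 0.00834 to 0.280 over 20 alternative settings.

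The 6 genes of complex IV all fell, with a median log2 fold change of -0.38, and spanned nearly the whole range of changes in the list. Cox7c, a small subunit of the enzyme's membrane part, had 400.1, 465, 446, 475 and 452 CPM in TAC, against 634, 571, 609, 656 and 598 CPM in sham. The groups were far apart, with the largest fall of the 35 (log2 fold change -0.46 ± 0.06, adjusted p = 1.48e-04 by edgeR). Cox7b, another small membrane subunit, had 325, 392, 356, 409 and 389 CPM in TAC, against 501, 481, 502, 537 and 530.0 CPM in sham. TAC replicate 1 was again the lowest and no library crossed (log2 fold change -0.45 ± 0.07, adjusted p = 2.98e-04 by edgeR).

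Cox5a, a subunit on the matrix side, stood at the other end. It had 186, 245, 202, 219.9 and 192 CPM in TAC, against 259.9, 222, 234, 259 and 280.1 CPM in sham. TAC replicate 2 lay above sham replicates 2 and 3, so the groups overlapped (log2 fold change -0.27 ± 0.08, adjusted p = 0.0249 by edgeR). This was the least stable call of the list: it ended in 9 of 20 alternatives, among them without TAC replicate 1 (adjusted p = 0.0514 by edgeR) and with library totals (adjusted p = 0.0878 by edgeR), and over all 20 its adjusted p ranged from 0.00605 to 0.338. With the GC and length correction the log2 fold change of Cox5a was -0.11 (adjusted p = 0.272 by edgeR). Leaving out TAC replicate 3 or 5, or sham replicate 4 or 5, also ended it, with adjusted p-values of 0.0575, 0.0584, 0.0547 and 0.0679 by edgeR. The other complex IV members, Cox6c, Cox5b and Cox6b1, had log2 fold changes of -0.43, -0.33 and -0.30, with no overlap between groups.

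Of the 16 genes of ATP synthase, 15 fell and Atp5s missed the threshold, and the median log2 fold change was -0.38. The catalytic head, F1, is built of alpha and beta subunits around a central stalk. Atp5a1, the alpha subunit, had 2434, 3150.0, 2785, 3414 and 3054 CPM in TAC, against 3867, 3737, 4129, 4212 and 4269 CPM in sham. The TAC libraries spread more widely than the sham libraries and stayed below them (log2 fold change -0.45 ± 0.09, adjusted p = 0.00161 by edgeR). Atp5b, the beta subunit that holds the catalytic sites, had 2457, 3095, 2844, 3131 and 3037 CPM in TAC, against 3957, 3629, 4046, 4141 and 3949 CPM in sham. Its TAC libraries ran in the same order (log2 fold change -0.44 ± 0.07, adjusted p = 6.95e-04 by edgeR).

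The central stalk holds the subunits gamma (Atp5c1), delta (Atp5d) and epsilon (Atp5e). Atp5c1 and Atp5e each had a log2 fold change of -0.44, and Atp5d had the smallest fall among the called genes of ATP synthase, a difference that was not tested. Atp5d read 826, 939, 862, 907 and 832 CPM in TAC, against 1073, 1029.8, 1022, 1032 and 1090.5 CPM in sham. The groups were separate and each was tight (log2 fold change -0.27 ± 0.05, adjusted p = 0.00234 by edgeR).

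Atp5h, subunit d of the peripheral stalk that holds the head still, had 449, 579, 546, 557 and 558 CPM in TAC, against 751, 693, 710.1, 775 and 742 CPM in sham. TAC replicate 1 lay well below the other TAC libraries, which all lay below sham (log2 fold change -0.45 ± 0.07, adjusted p = 3.95e-04 by edgeR). The other parts of that stalk, subunit b (Atp5f1), OSCP (Atp5o) and F6 (Atp5j), had log2 fold changes of -0.38, -0.42 and -0.38. The small subunits of the membrane part, e (Atp5k), f (Atp5j2) and g (Atp5l), which take part in joining the enzyme into dimers, had -0.39, -0.35 and -0.38.

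Subunit c forms the rotating ring in the membrane. Its genes Atp5g1, Atp5g2 and Atp5g3 differ in the presequence that targets the protein to mitochondria and is removed there. Atp5g1 had 1186, 1400.3, 1324, 1313 and 1277 CPM in TAC, against 1627, 1555, 1575, 1591 and 1606 CPM in sham. The sham libraries were nearly level and lay above every TAC library (log2 fold change -0.29 ± 0.06, adjusted p = 0.00146 by edgeR). Atp5g2 had 281, 308, 296, 299.9 and 311 CPM in TAC, against 398, 355, 389, 395 and 372 CPM in sham, also without overlap (log2 fold change -0.35 ± 0.05, adjusted p = 2.88e-04 by edgeR).

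Atp5g3 had 817, 1075, 891, 1028 and 877 CPM in TAC, against 1176, 1117, 1147, 1191 and 1279 CPM in sham. TAC replicates 2 and 4 stood above the other TAC libraries and just below the lowest sham library (log2 fold change -0.33 ± 0.08, adjusted p = 0.00493 by edgeR). Of the differences between these 3 genes, only that of Atp5g1 and Atp5g3 was tested, as a ratio given below. Over the whole promoter windows, Atp5g2 and Atp5g3 both held the NRF1-type word. Whether promoter words go with the changes was not tested.

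Atp5s, known as coupling factor s and grouped with ATP synthase by its symbol, was the only member that did not pass. It had 3.93, 4.21, 4.22, 4.28 and 4.94 CPM in TAC, against 5.97, 4.51, 4.91, 6.52 and 5.04 CPM in sham. TAC replicate 5 lay above sham replicates 2 and 3. Its log2 fold change of -0.32 ± 0.14 lay within the range of the called members, with the widest SE of the list (adjusted p = 0.0873 by edgeR).

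**Figure D2:**
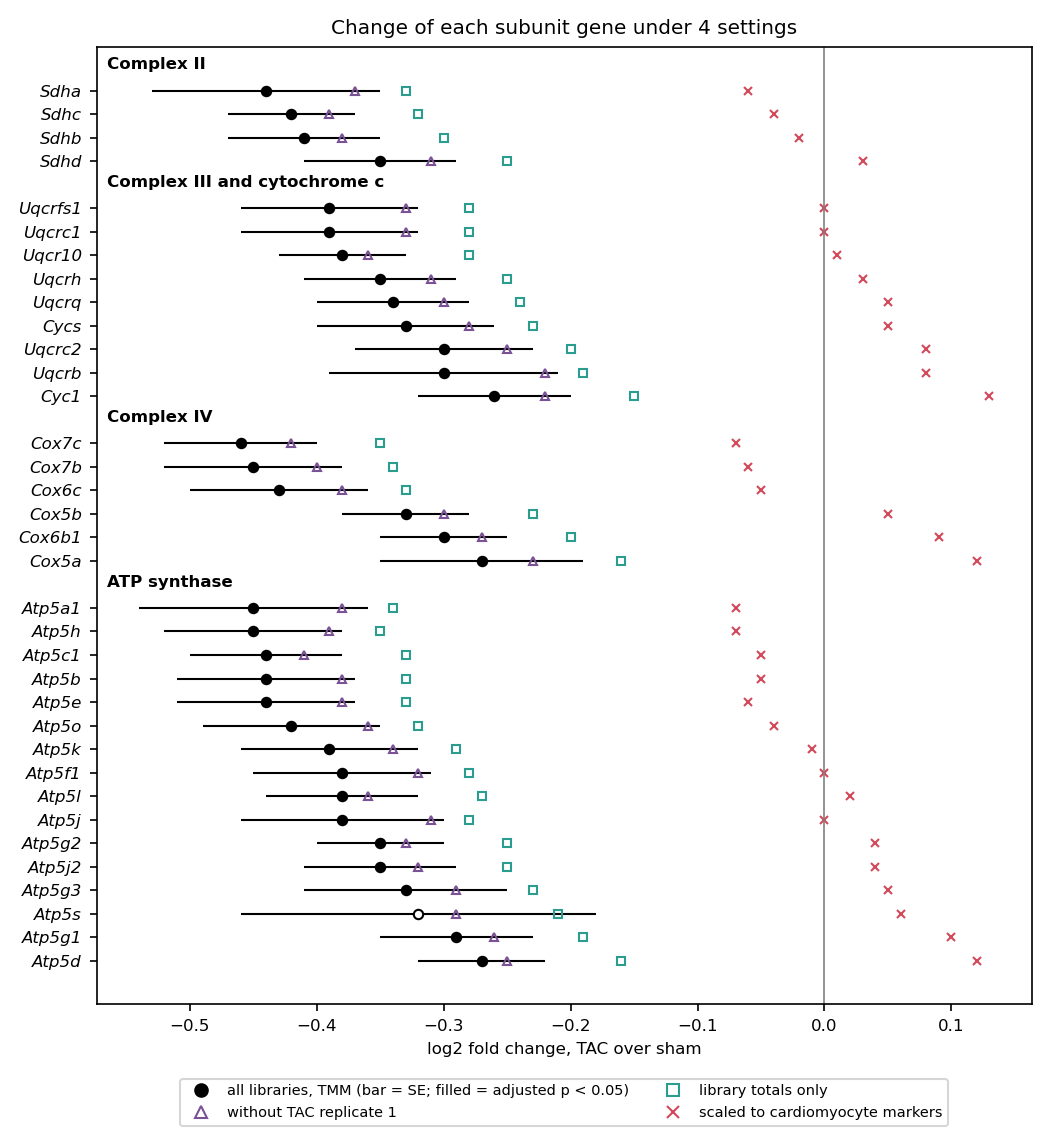
Log2 fold change of each gene, TAC over sham, by complex. Circles with bars are the fits to all libraries ± SE (filled where the adjusted p was under 0.05), triangles the fits without TAC replicate 1, squares those with library totals only, and crosses those scaled to cardiomyocyte markers. All circles, triangles and squares lie below 0, and the crosses lie between -0.07 and 0.13.

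Per length of transcript the members spanned a wide range of levels. In CPM per kilobase, Atp5g1 was highest at 2181 ± 131 in TAC and 2669 ± 46.6 in sham, followed by Atp5b at 1520.3 ± 145 in TAC and 2059 ± 101 in sham (SD, n = 5). Behind them, Atp5g3, Uqcrq and Atp5a1 averaged 1655, 1653 and 1636 CPM per kilobase in sham, within 1 SD of each other. At the low end stood Atp5s at 2.91 ± 0.252 in TAC and 3.63 ± 0.558 in sham, and above it Sdhc, at 109 ± 6.06 in TAC and 146 ± 5.92 in sham. Subunits present once in the same complex differed by this measure: Uqcrq had 1653 and Uqcrb 225 CPM per kilobase in sham, and Sdhb 824 and Sdhc 146.

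Many members share sequence with other genes. Of the windows of 50 bases in each transcript, every one was also found in another gene for Atp5g2, and so were 84.8% for Atp5l, 66.0% for Atp5g1, 53.0% for Cox7c, 50.5% for Atp5h, 50.3% for Atp5o and 43.4% for Uqcrb. The copies are mostly annotated as pseudogenes, except for Atp5o, where 1 of 3 is one and the closest is a second protein-coding record of the same name. Treatment of reads with several places is not given in the sources used here, so the values of these genes are uncertain. The medians lay close together across this share: the median log2 fold change was -0.35 in the 13 members with at least 20% of windows shared, -0.39 in the 6 with 1% to 20%, and -0.38 in the 16 with under 1%. The libraries do not keep the strand, and Atp5j overlaps Gabpa and Uqcrc2 overlaps Pdzd9, so reads from the overlaps cannot be told apart. Of the windows of Atp5j 16.3%, and of those of Uqcrc2 24.8%, occur in another gene.

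**Figure D3:**
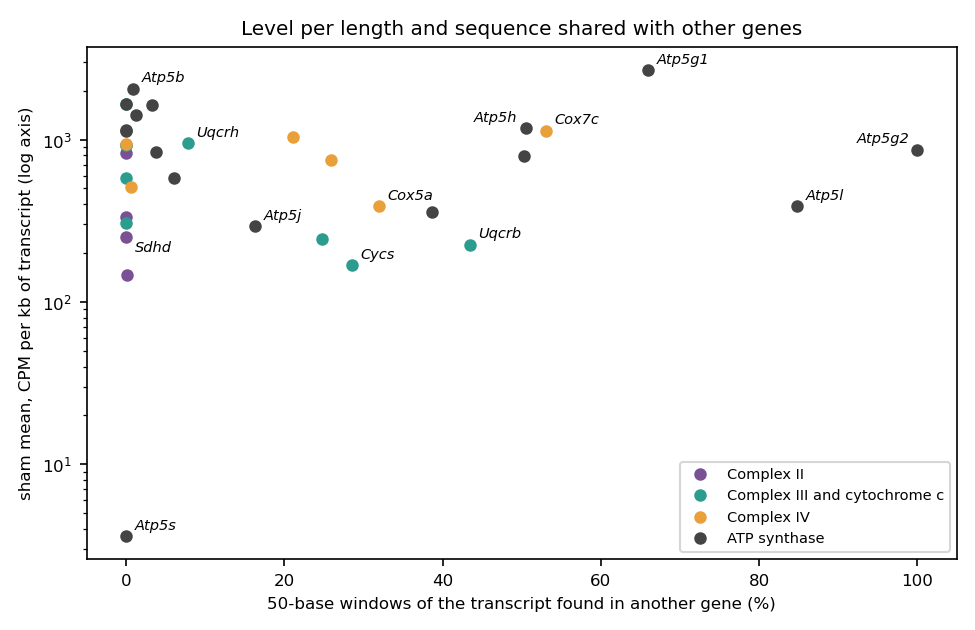
Mean sham level of each gene in CPM per kilobase of transcript (log axis) against the percentage of its 50-base windows that also occur in another gene, coloured by complex. Genes with much shared sequence occur across the range of levels, with Atp5g1 (66.0%) the highest and Uqcrb (43.4%) among the lower ones.

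The library labelled TAC replicate 1, which goes against its female label, was the lowest of all libraries in 34 of the 35 members. The median member, as a log2 ratio to the sham mean, stood at -0.56, -0.30, -0.38, -0.30 and -0.36 in TAC libraries 1 to 5, and at 0.01, -0.08, -0.01, 0.06 and 0.02 in sham libraries 1 to 5. Within TAC replicate 1 the complexes moved together, at -0.56 for complex II, -0.53 for complex III, -0.54 for complex IV and -0.60 for ATP synthase. Without it, 33 members fell, against 15.1% of all genes tested then, and the median log2 fold change was -0.33. The call that ended was that of Cox5a.

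The members' share of all counts was 2.01% to 2.37% in TAC libraries and 2.69% to 2.82% in sham libraries. In tissue, fewer cells of a type and less RNA per cell cannot be told apart, and other measures of the cell makeup moved with the groups. Of 9 cardiomyocyte markers 7 fell, with a median log2 fold change of -0.40, and their summed level was 56299 to 80117 CPM in TAC and 84451 to 99752 CPM in sham. Of all tested genes 17.0% fell and 18.8% rose. Of 8 fibroblast markers 7 rose, with sums of 2946 to 8621 CPM in TAC and 902 to 1365 CPM in sham, and TAC replicate 1 had the highest sum, with 2946 to 3541 CPM in the other TAC libraries. With that library left out, 6 of the 8 rose. All 7 macrophage markers rose, with sums of 311 to 523 CPM in TAC and 188 to 221 CPM in sham, and without TAC replicate 1 all 7 rose with TAC sums of 311 to 335 CPM. So did all 5 markers of dividing cells (42.3 to 97.7 CPM in TAC and 3.54 to 13.3 CPM in sham). Endothelial sums were 1134 to 1371 CPM in TAC and 984 to 1195 CPM in sham, with overlap. Only 2 of 6 endothelial markers rose (3 without TAC replicate 1), too few to set apart from the 18.8% of all tested genes. Markers of atrial muscle, lymphocytes, skeletal muscle and nerve summed to at most 6.75 CPM in any library.

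Set against cardiomyocyte markers, the members did not separate the groups. Per 100 counts of the 9 markers there were 33.6, 29.4, 31.1, 29.1 and 30.5 member counts in TAC, against 31.9, 31.7, 28.5, 31.7 and 29.9 in sham. TAC replicate 1 was the highest of all by this measure and sham replicate 3 the lowest. Without Myh6, the most abundant marker, there were 52.8 to 58.6 in TAC and 55.1 to 59.3 in sham, again with overlap, and TAC replicate 1 was then the lowest of all, at 52.8. In an alternative chosen after seeing the data, which scaled each library to the 9 markers, 0 members passed edgeR's test, with 0 at an unadjusted p under 0.05 and no other tool run. Their log2 fold changes then lay between -0.07 and 0.13 with a median of 0.01, while 1.44% of all tested genes were called lower. Leaving Myh6 out of that scaling gave a median of -0.04 with 0 members passing, 0 at an unadjusted p under 0.05, and 2.25% of genes called lower. Since the markers themselves fell at their TMM-scaled levels, this scaling and TMM answer different questions, and the part of cell makeup in the falls was not tested.

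**Figure D4:**
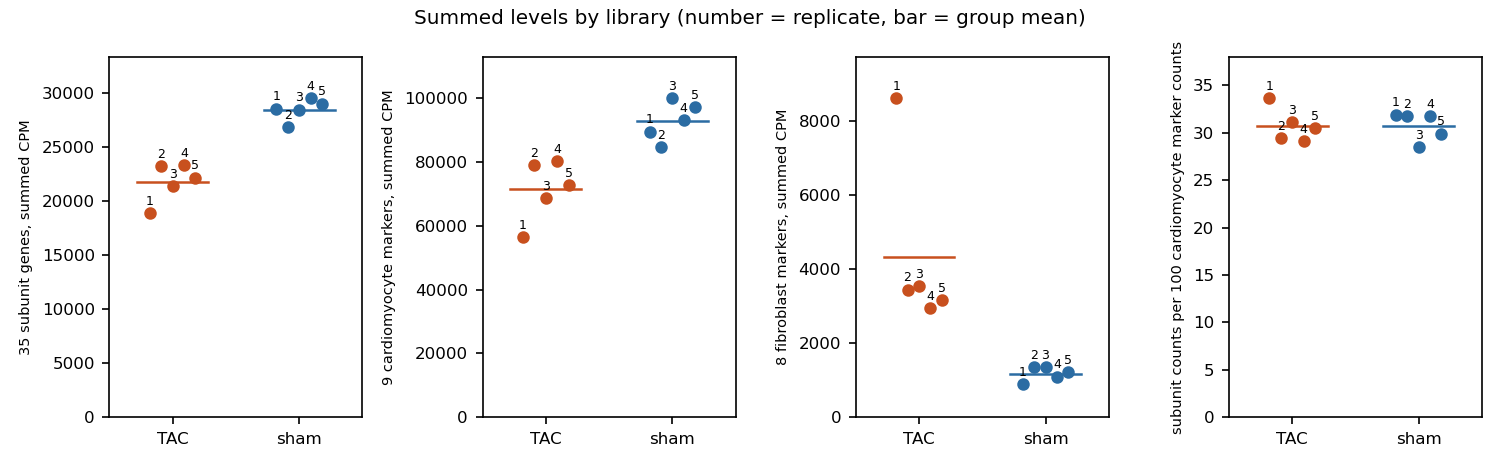
Summed levels by library, with TAC left of sham, replicate numbers beside the points and bars at group means. From left to right are the 35 listed genes (labelled subunit genes), the 9 cardiomyocyte markers and the 8 fibroblast markers in summed CPM. The last panel holds counts of the listed genes per 100 cardiomyocyte marker counts. Only this last panel has overlapping groups, at 29.1 to 33.6 in TAC and 28.5 to 31.9 in sham.

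Scaling drops out of a ratio between genes of one library, and 8 such ratios were compared between groups by two-sided exact permutation tests over every way to split the 10 libraries into 5 and 5, with Benjamini-Hochberg adjustment over the 8. None passed at an adjusted p under 0.05. With 5 against 5 libraries the exact permutation p cannot go below 0.00794. After adjustment over 8, a ratio that differed alone could thus not pass, even with the groups wholly separate. The lack of calls therefore does not show that the ratios were unchanged. The ratio of Cycs to Cyc1 had a mean log2 of -0.83 ± 0.04 in TAC and -0.75 ± 0.05 in sham (SD). All 5 TAC libraries lay below the sham mean (difference -0.08, exact permutation p = 0.0317, adjusted p = 0.159). The ratio of Atp5b to mt-Atp6, a mitochondrially encoded subunit of the same enzyme, had a mean log2 of -1.70 ± 0.13 in TAC and -1.45 ± 0.16 in sham, again with all 5 TAC libraries below the sham mean (difference -0.25, exact permutation p = 0.0397, adjusted p = 0.159). For the remaining 6 the adjusted p lay between 0.397 and 0.984 by the same exact test, and the differences lay between -0.09 for Sdha over Sdhd and 0.13 for Atp5s over Atp5b. The ratio of Uqcrfs1 to Uqcrc1, neighbours in complex III, differed by 0.00. That of Atp5g1 to Atp5g3 differed by 0.05, with SDs of 0.10 in TAC and 0.06 in sham.

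**Figure D5:**
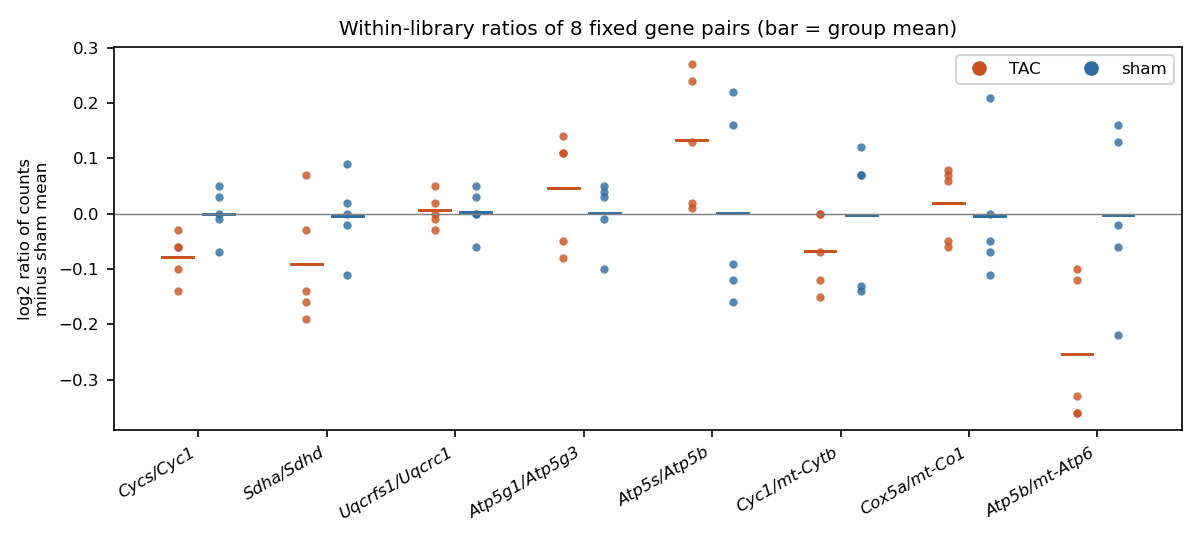
Within-library log2 ratios of counts for 8 gene pairs, each set to its sham mean, with TAC left of sham and bars at group means. The TAC means of Cycs/Cyc1 and Atp5b/mt-Atp6 lie 0.08 and 0.25 below sham, and no pair separates the groups completely.

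Partners of these subunits were counted from further lists. Of the 6 subunits of complexes III, IV and ATP synthase encoded in the mitochondrial genome, 3 fell, none rose and 3 did not pass, where 17.0% of all tested genes fell. None rose at an unadjusted p under 0.05, and none by DESeq2 or limma-voom. Those that fell were mt-Co1 and mt-Co2, catalytic subunits of complex IV, and mt-Atp8 of ATP synthase, and their log2 fold changes were -0.29, -0.27 and -0.24 (adjusted p = 0.0252, 0.0394 and 0.0324 by edgeR). mt-Co1 averaged 19565 ± 1999.5 CPM in TAC and 23892 ± 2177 CPM in sham (SD, n = 5). With library totals none of the 6 fell by edgeR, and 1 did at an unadjusted p under 0.05. Without TAC replicate 1 the count was 2, and mt-Co2 no longer passed (adjusted p = 0.0576 by edgeR). Without TAC replicate 3 the count was 1, and without TAC replicate 5, sham replicate 1 or sham replicate 4 it was 0, whereas without TAC replicate 2 it was 5.

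Assembly factors, which help to build the complexes, were mostly lower. The list so named here also holds Usmg5, Atpif1, Lrpprc and Taco1, which are tied to these complexes in other ways. Of 32 tested, 21 fell and 11 missed the threshold, where 17.0% of all tested genes fell, and the median log2 fold change was -0.24. Ttc19, an assembly factor of complex III, had 22.4 ± 2.40 CPM in TAC and 31.4 ± 2.98 CPM in sham (log2 fold change -0.49 ± 0.09, adjusted p = 0.00103 by edgeR). Uqcc1, another complex III factor, had 94.5 ± 5.61 CPM in TAC and 119 ± 4.65 CPM in sham (log2 fold change -0.33 ± 0.05, adjusted p = 6.31e-04 by edgeR). Cox10, which makes a heme precursor for complex IV, had 101 ± 6.96 CPM in TAC and 126 ± 7.63 CPM in sham (log2 fold change -0.32 ± 0.06, adjusted p = 0.00154 by edgeR). None rose, with 1 at an unadjusted p under 0.05 and 1 called by DESeq2: Cox19, a copper-handling factor of complex IV, had 56.4 ± 8.55 CPM in TAC and 46.8 ± 4.19 CPM in sham (log2 fold change 0.27 ± 0.10, adjusted p = 0.0505 by edgeR). With library totals, 8 of the 32 fell and 1 rose, where 9.66% of all tested genes fell. Without TAC replicate 1, 18 fell and none rose, where 15.1% of all genes tested then fell.

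Among 15 transcription factors and coactivators known to act at promoters of respiratory genes, 6 fell, 1 rose and 8 did not pass, where 17.0% of all tested genes fell and 18.8% rose. Without TAC replicate 1, 6 fell and 2 rose. Perm1, a muscle regulator of the PGC-1 and ERR pathway, had 439 ± 52.1 CPM in TAC and 656 ± 32.2 CPM in sham (log2 fold change -0.58 ± 0.08, adjusted p = 1.77e-04 by edgeR). All 3 ERR genes fell: Esrra had 190.0 ± 14.8 CPM in TAC and 255 ± 15.4 CPM in sham, and Esrra, Esrrb and Esrrg changed by -0.43, -0.49 and -0.49 on the log2 scale (adjusted p = 3.14e-04, 4.37e-04 and 9.77e-04 by edgeR). The other genes that fell were Ppargc1a, the coactivator PGC-1 alpha, and Tfam, a transcription factor of the mitochondrial genome that also packs it. Pprc1, a PGC-1-related coactivator, moved the opposite way, with 66.2 ± 7.36 CPM in TAC and 49.2 ± 3.18 CPM in sham (log2 fold change 0.43 ± 0.08, adjusted p = 0.00128 by edgeR). Nrf1, the factor whose word Sdha holds 3 times, had 16.2 ± 2.54 CPM in TAC and 16.6 ± 1.43 CPM in sham, with no call (log2 fold change -0.04 ± 0.11, adjusted p = 0.806 by edgeR). Gabpa, Yy1 and Sp1 did not pass either, with log2 fold changes of -0.15, 0.08 and 0.07.

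The 37 subunit genes of complex I, found by symbol, had the same median log2 fold change as the members, -0.38, and all 37 fell. Leaving out TAC replicate 1, 36 of these fell, where 15.1% of all genes tested then fell. The calls of the members rest on small changes, so the corrections that act on all genes alike matter. With plain library totals as the scale 32 members fell, against 9.66% of all tested genes, and the median was -0.28 while that of all tested genes moved to 0.11. A correction for GC content and transcript length left 32 fallen and brought the median to -0.25, with a wider range of -0.44 to -0.11. About as many of all tested genes fell with it as in the main fit, where 17.0% did. The aligner and genome build that the submitters list differ between TAC and sham libraries, and this cannot be told apart from the groups.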

How the data were processed

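The authors deposited whole-number read counts per Ensembl gene, not normalized, in 1 table of 10 libraries, and all 10 sample columns were used. Per the labels' protocols, polyadenylated RNA was fragmented chemically and sequenced single-end without strand. Per the submitters' processing notes, Bowtie, TopHat 1.3.0, HTSeq, mm9 and mm10 are listed for TAC libraries, and Bowtie2, TopHat2 2.0.10, HTSeq and mm10 for sham libraries. Per the file headers, gene IDs are those of GRCm37. How the counter was set, and on which annotation, is not given in the sources used here. The titles of the sham libraries do not name the operation, and the group was read from the series' design statement. A row of totals that names no gene was left out.

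Counts were tested with edgeR 4.0.16 (R 4.3.3, limma 3.58.1): TMM factors, filterByExpr with a minimum count of 10 and a minimum total of 15, quasi-likelihood F tests of group, and Benjamini-Hochberg adjustment at 0.05 over 12001 genes. DESeq2 1.42.0 and limma-voom were alternatives. Levels are TMM-scaled CPM. The p-values measure the spread between 5 and 5 libraries, and with 5 against 5 the exact two-sided permutation p cannot go below 0.00794. At 7410967 to 10126574 counts per library, depth limits weak genes such as Atp5s. Transcript length, GC content and shared windows of 50 bases come from GENCODE M21 (94.6% of 20692 IDs matched, with all 35 members among them), with 1 principal transcript per gene. Promoters were matched by symbol to RefSeq. The fit was tested on simulated counts with 200 changed genes, as many raised as lowered, each gene drawn independently. Such counts hold no shared library shifts and do not test the choice of scaling.

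The members and all lists were chosen with earlier results of these data known. Described in full were all of complex II and the 2 largest falls and the smallest fall of each other complex. So were members that did not pass and a panel of 13 members. Of related lists, the 3 smallest adjusted p-values and genes that moved against the rest were named. Genes shown because a library ended their call, and further list members, were named after their values were seen.

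Numbers shared by TAC and sham titles were taken as names only. Correlations of deviations between same-numbered libraries lay between -0.092 and 0.22. For TAC replicates 3 and 4 the sham library of the same number correlated best, and for the other TAC replicates it did not. These values cannot show whether numbers stand for a shared batch. Alternatives were other size factors, tools, filters, corrections and each library left out, with added scalings to cardiomyocyte markers.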

Additional observations from a re-analysis of the deposited data

Results flagged for a closer look

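In 6 of the 35 genes the lowest TAC library stood far below the other TAC libraries, with a gap to its neighbour of over 0.71 of the group's range. In each it was TAC replicate 1. It had 359 CPM of Uqcrh (409 to 429 in the other TAC libraries), 471 CPM of Cox5b (521 to 539) and 429 CPM of Cox6b1 (476 to 489.7). It also had 328 CPM of Cox6c (391 to 411), 449 CPM of Atp5h (546 to 579) and 147 CPM of Atp5j (182 to 196). The same library had the highest sum of fibroblast markers, at 8621 CPM, against 2946 to 3541 CPM in the other TAC libraries. These 7 came from 94 groups examined, and chance picks out about 1 in 20 groups. All 7 are values of 1 library. All 6 genes were also called lower without that library.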

How the results depend on the processing

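Of 700 fits of single members over 20 alternative settings, 684 kept the direction and call and 16 lost the call. These were 9 of Cox5a, 5 of Uqcrb and 1 each of Cox6b1 (adjusted p = 0.0559 by edgeR) and Atp5g3 (0.0689), both with replicate block and GC and length correction together. With replicate number as a block alone, 33 members fell and Cox5a lost its call (adjusted p = 0.0511 by edgeR). With block and correction 30 fell. In both of these fits fewer of all tested genes fell than in the main fit, where 17.0% did. The labels do not say that the numbers pair the libraries. The GC and length correction moved the members' median log2 fold change to -0.25, and block with correction to -0.26. With each library left out in turn, 32 to 34 members fell and the median lay between -0.40 and -0.33.

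Scaling to cardiomyocyte markers, added after seeing the data, moved the members' median to 0.01 and that of all genes to 0.39 (-0.04 and 0.34 without Myh6 among the markers), and 0 members fell in any complex. Relative to all genes the members' median stayed at -0.38, as it must when a scaling moves all genes alike. Over all genes the marker scaling gave 6701 higher and 173 lower (6986 and 270 without Myh6), and library totals gave 1159 lower. Such counts move with the scale, and which scale is right for these hearts was not tested. Mitochondrially encoded subunits that fell numbered 0 with library totals, 1 with the block, 1 with the correction, 0 with both, and 0 to 5 with single libraries left out. Assembly factors that fell numbered 8 with library totals and 13 with block and correction. One assembly factor, 1 in each case, rose with library totals, upper-quartile factors, DESeq2, robust dispersion, the block, the correction and both together, and 0 to 1 with a library left out. Promoter factors that rose numbered 2 of 15 with library totals, with the correction and with both, and 1 to 2 with a library left out. With library totals 3257 of all 12001 tested genes rose, against 2251 in the main fit. Fewer of all genes rose than in the main fit with the correction, with both and with each library left out. Whether the promoter factors differ from all genes in this was not tested. Leaving out libraries moved the Uqcrfs1 over Uqcrc1 log2 difference between -0.01 and 0.01 and that of Cox5a over mt-Co1 between -0.00 and 0.08, with adjusted exact permutation p of at least 0.254. With the replicate block, an exact sign-flip test of ratios cannot go below 0.0625.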

Other observations

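Adipocyte markers summed to 20.3 to 34.2 CPM in TAC and 25.9 to 46.6 CPM in sham libraries, and erythroid genes to 1000.1 to 2137 CPM in TAC and 276 to 1688 CPM in sham. Smooth muscle and pericyte markers summed to 1244 to 1380.4 CPM in TAC and 1157 to 1499 CPM in sham. Of these 6, Pdgfrb and Notch3 rose (adjusted p = 0.00274 and 4.79e-04 by edgeR), where 18.8% of all tested genes rose. Without TAC replicate 1, 3 of the 6 rose. All 3 ranges overlap between the groups. Per 100 counts of the 6 mitochondrially encoded subunits, the 35 members had 44.4, 41.3, 42.2, 47.3 and 46.8 counts in TAC libraries, against 43.5, 49.8, 52.4, 46.1 and 52.5 in sham libraries, with overlap.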
